A study of Mus musculus with 12 samples.

Results

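The comparison described here set CD8a cells against CD4 cells of the same spleen in wild-type mice after repeated social defeat stress. Its members were the genes that the authors listed for both cell types, which were 2166 of 3684 genes listed in all. Of the rest, 833 genes were listed for CD4 cells only and 685 for CD8a cells only, and these have no within-mouse comparison. Each of the 3 stressed wild-type mice gave 1 average value per gene in its CD4 cells and 1 in its CD8a cells, so every difference was taken inside a mouse.

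The spleens came from C57Bl6/J mice (wild type) and from C57Bl6/J mice lacking S100a9 (S100a9-/-, the knockout), with 3 mice in each of 4 groups set by genotype and by the presence or absence of stress. Defeat was repeated over 10 days, behaviour was tested for 1 day and spleens were taken on day 12. Erythrocytes were lysed and whole splenocyte suspensions went into single-cell libraries that read the 3' ends of transcripts, so CD4 and CD8a cells of a mouse share 1 library. The groups used below are stressed wild type, unstressed wild type and stressed knockout; knockout mice without stress enter only 1 alternative fit. The sex and age of the mice, the number of cells behind each average, the depth of each library, the treatment of doublets and the rule that called a cell CD4 or CD8a are not given in the sources used here. If that rule drew on the expression of the genes below, their differences follow in part from it, and an average cannot separate more cells with a transcript from more transcript per cell.

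CD4 and CD8 are coreceptors that hold the T cell receptor to MHC molecules: CD4 binds MHC class II and marks helper and regulatory T cells, and CD8, a dimer of the products of Cd8a and Cd8b1, binds MHC class I and marks cells with the potential to kill. Helper cells act mostly through cytokines and surface ligands, and cytotoxic cells through granules that hold granzymes and perforin. In the spleen both kinds circulate as naive cells, which keep homing receptors and divide little, and as memory cells, which carry adhesion molecules, chemokines and calcium-binding S100 proteins.

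The coreceptor genes separated the 2 cell types as their labels say, and these values are a check of the labels and no finding. Cd8a (chromosome 6, 71373427 to 71379173, plus strand, mm10) averaged 3.84, 4.16 and 3.75 in the CD8a cells of mice 1, 2 and 3 and 0.269, 0.101 and 0.222 in their CD4 cells, on the authors' linear scale of average expression. Cd8b1 averaged 8.83, 9.26 and 8.92 in CD8a cells and 0.883, 0.303 and 0.724 in CD4 cells. Cd4 was listed for CD4 cells only, at 1.66, 1.74 and 1.85. The CD8a cells of every mouse therefore stood far above the CD4 cells for both CD8 chains, and the CD4 cells of mouse 2 held the least of either chain. Both averages carried genes of the T cell receptor complex. Cd3d differed by 0.03 ± 0.04 (moderated SE, explained below) on the log2 scale and was not called (adjusted p = 0.69), whereas Cd3g and Trbc2 were called higher in CD4 cells. Cd3e was listed for CD8a cells only and Trbc1 for CD4 cells only.

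A difference is given throughout as CD8a minus CD4 on the log2(value + 0.1) scale, averaged over the 3 mice. The value after ± is limma's moderated standard error, which borrows variance across genes and does not measure the spread between mice alone. The 3 differences of Ccl5 had a standard deviation of 0.78 beside a moderated error of 0.22, and those of Vamp8 0.0083 beside 0.07. A call means an adjusted p under 0.05 in limma's moderated test, with Benjamini-Hochberg adjustment over all 2166 genes. In all, 522 genes were called, which is 24.1% of those tested: 163 were higher in CD8a cells (7.53%) and 359 were higher in CD4 cells (16.6%). These shares are the background for the counts of each list below. Before adjustment 801 genes (37.0%) had a p under 0.05. All 3 mice were higher in CD8a cells for 385 genes (17.8%) and higher in CD4 cells for 842 (38.9%). Most differences were small, since 420 of the called genes differed by less than 0.5 on the log2 scale and 25 by more than 1, 14 of these higher in CD8a and 11 higher in CD4 cells. The 6 values of a gene separated completely between the cell types, with CD8a on top, for 194 genes (8.96%), and with CD4 on top for 492 (22.7%). The split of called genes depends on the scale: with each profile centred on its median it was 264 higher in CD8a to 192 higher in CD4, and with ribosomal and mitochondrial genes left out of the scaling it was 237 to 210. Without mouse 3 the calls were 96 and 180.

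**Figure D1:**
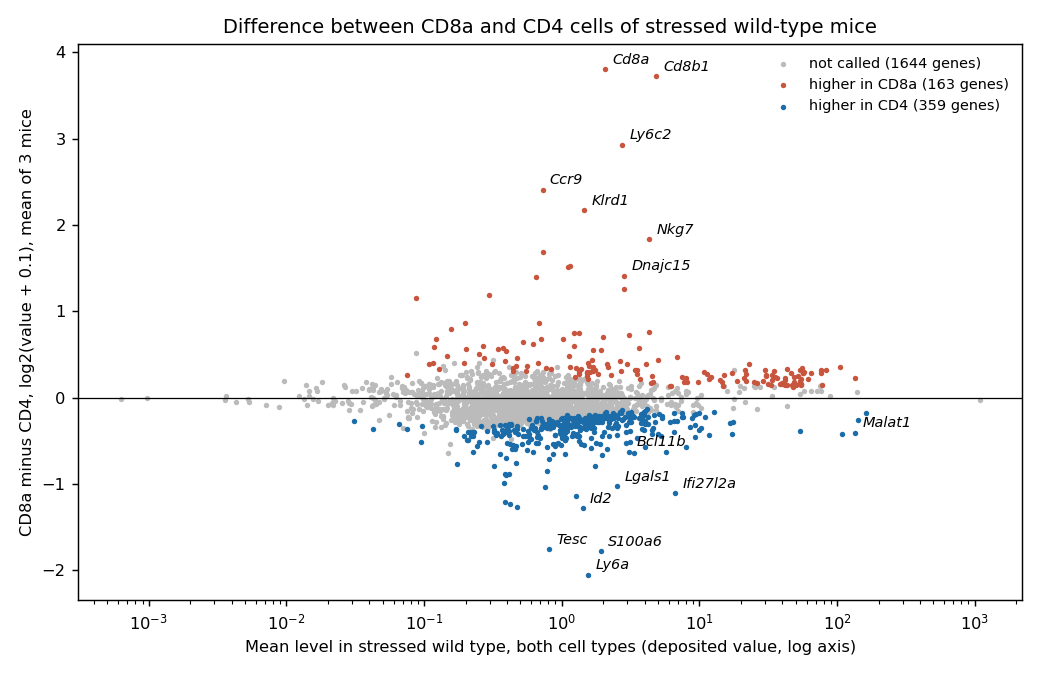
Difference between CD8a and CD4 cells on the log2(value + 0.1) scale (vertical axis, mean of 3 stressed wild-type mice) against the mean level of the gene in both cell types (horizontal axis, deposited value, log axis), 1 point per gene, coloured by call. The CD8 chains and Ly6c2 stand highest and Ly6a lowest, and the 359 genes called higher in CD4 cells outnumber the 163 called higher in CD8a cells.

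Genes of the CD8 lineage and of cytotoxic granules were mostly higher in CD8a cells where a comparison was possible. Of 23 such genes, 7 were listed for both cell types and 6 of these were called higher in CD8a cells, with a median difference of 1.83 against -0.08 over all shared genes. The 6 were Cd8a (3.80 ± 0.16), Cd8b1 (3.73 ± 0.21), Klrd1, Nkg7, Cst7 and Gzmm, and the exception was Ccl5. Cd8a and Cd8b1 are the check of the labels above, so their part in this count and median is no finding. All other members of the list differed by less than Ly6c2 (2.93 ± 0.18) and Ccr9 (2.41 ± 0.12), which are outside it. Runx factors are known regulators of CD8 and cytotoxic genes, so the RefSeq promoter windows of GRCm38.p6, the 250 bases before each annotated start, were searched for the core Runx motif, TGTGGT or its reverse complement ACCACA. A window was matched for Cd8a, Cst7, Gzmm and Nkg7. These sequences are shown because they belong to the members of this list that had a window, 5′ to 3′, with the motif in capitals; that of Nkg7 stops before the GENCODE start of the gene and that of Gzmm is for the first of its annotated starts.
Cd8a, chr6:71373177-71373426, plus strand: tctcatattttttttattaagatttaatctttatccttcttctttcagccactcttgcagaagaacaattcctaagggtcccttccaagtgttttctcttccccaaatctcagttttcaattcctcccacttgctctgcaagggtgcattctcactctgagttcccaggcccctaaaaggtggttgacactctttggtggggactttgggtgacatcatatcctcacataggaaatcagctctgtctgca
Cst7, chr2:150570165-150570414, plus strand: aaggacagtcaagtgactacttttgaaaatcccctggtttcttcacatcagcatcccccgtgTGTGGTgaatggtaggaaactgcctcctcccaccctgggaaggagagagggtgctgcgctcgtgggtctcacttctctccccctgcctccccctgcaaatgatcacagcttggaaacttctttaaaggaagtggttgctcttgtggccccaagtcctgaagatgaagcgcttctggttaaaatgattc
Gzmm, chr10:79688770-79689019, plus strand: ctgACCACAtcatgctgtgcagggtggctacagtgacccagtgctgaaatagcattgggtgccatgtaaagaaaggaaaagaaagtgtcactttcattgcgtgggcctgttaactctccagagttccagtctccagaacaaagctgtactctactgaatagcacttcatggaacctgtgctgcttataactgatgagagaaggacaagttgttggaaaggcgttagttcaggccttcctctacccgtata
Nkg7, chr7:43436888-43437072, plus strand: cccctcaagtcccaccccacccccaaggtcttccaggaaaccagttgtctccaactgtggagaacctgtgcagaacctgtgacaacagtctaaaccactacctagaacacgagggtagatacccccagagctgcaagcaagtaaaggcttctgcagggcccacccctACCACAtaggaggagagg
The motif begins 188 bases before the start of Cst7, 247 before that of Gzmm and 83 before the RefSeq start of Nkg7, which lies past the end of the stretch printed for that gene. These letters are not in the window of Cd8a or in that of the other Gzmm start. Over all 32851 windows of the reference, 14.0% hold the motif in either direction. A match is a run of letters and does not show binding.

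Among the cytotoxic genes, Klrd1, which encodes the CD94 receptor subunit of NK and CD8 cells, averaged 2.45, 2.29 and 2.57 in CD8a cells and 0.515, 0.288 and 0.649 in CD4 cells. The groups did not overlap and the difference was 2.17 ± 0.13 (adjusted p = 2e-05). Nkg7, a granule membrane protein, averaged 7.47, 6.13 and 6.53 in CD8a cells against 2.66, 0.956 and 2.28 in CD4 cells (1.83 ± 0.18, adjusted p = 0.00025). Cst7, the cathepsin inhibitor cystatin F, was at 1.05, 0.979 and 0.936 against 0.362, 0.214 and 0.381 (1.40 ± 0.13, adjusted p = 0.00017). Gzmm, granzyme M, was low in both, at 0.203, 0.108 and 0.202 against 0.118, 0.0281 and 0.0668, and its CD8a and CD4 values overlapped between mice although each mouse was higher in CD8a cells (0.68 ± 0.10, adjusted p = 0.0021). Ccl5 (chromosome 11, 83525778 to 83530518, minus strand), a chemokine of memory T cells and NK cells, differed between the mice. It averaged 18.3, 16.5 and 21.6 in CD8a cells and 22.8, 7.19 and 20.4 in CD4 cells, so that CD4 cells held more of it in mouse 1, CD8a cells in mouse 2, and mouse 3 was nearly level (0.32 ± 0.22, adjusted p = 0.33).

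The CD4 average of mouse 2 stood apart for these genes. Summed over the 7 shared CD8 and cytotoxic genes, the CD4 cells of mice 1, 2 and 3 held 27.6, 9.08 and 24.8, while the CD8a cells held 42.2, 39.4 and 44.5. In unstressed wild type the same sum was 4.88, 5.15 and 3.37 in CD4 and 31.2, 34.7 and 29.7 in CD8a cells. Of 18 NK cell markers 4 were listed for both cell types, and Klrd1, Nkg7 and Ccl5 of these are also in the list just summed. The NK sum is therefore no separate observation. Called higher in CD8a cells were 3 (Klrd1, Nkg7 and Il2rb, all of which memory CD8 cells also express). Their list summed to 27.2, 9.27 and 24.3 in CD4 against 29.7, 26.6 and 32.6 in CD8a cells. Ccl5 made up most of these sums, and most of the 7-gene sums of CD4 cells in stressed mice. The CD4 tables alone also list Gzma, Gzmb, Gzmk and Prf1, and the CD8a tables alone Ctsw, Klrc1 and Xcl1, so the granule genes themselves are mostly out of reach of a within-mouse comparison. The part of other cells in these averages was not tested.

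**Figure D2:**
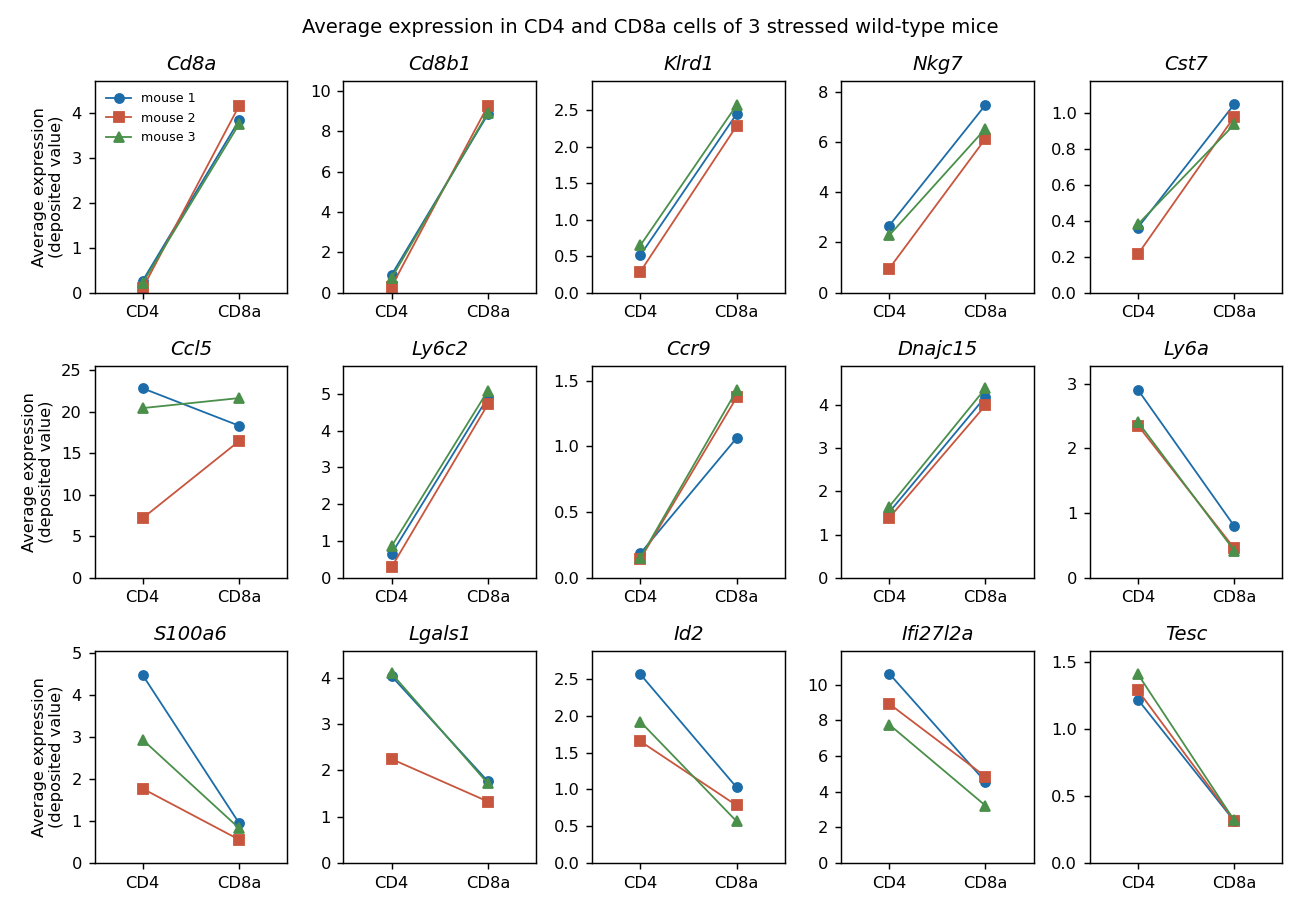
Average expression (vertical axis, deposited value, starting at 0) of 15 genes in CD4 and CD8a cells, with 1 line per stressed wild-type mouse. The lines of Cd8a, Cd8b1, Klrd1, Nkg7, Cst7, Ly6c2, Ccr9 and Dnajc15 climb to CD8a in all 3 mice and those of Ly6a, S100a6, Lgals1, Id2, Ifi27l2a and Tesc fall, while the 3 lines of Ccl5 disagree.

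Memory and homing genes split by gene rather than by list. Of 23 shared memory and activation genes, 6 were higher in CD8a and 11 higher in CD4 cells, beside 7.53% and 16.6% of all shared genes. Ly6c2, a surface antigen of memory CD8 cells, averaged 4.90, 4.71 and 5.08 in CD8a cells and 0.654, 0.291 and 0.856 in CD4 cells (2.93 ± 0.18), although its near-identical neighbour Ly6c1, listed for CD4 cells only, may share its reads. Il2rb, the IL-2 and IL-15 receptor chain, was higher in CD8a cells by 0.74 ± 0.13 (adjusted p = 0.0048), as were Plac8 (1.53 ± 0.14), a small protein of lymphoid and myeloid cells, Dapl1 (0.76 ± 0.07) and Ms4a4b and Ms4a4c, which resemble each other in sequence.

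On the CD4 side of that list, Ly6a, which encodes Sca-1, averaged 2.90, 2.35 and 2.41 in CD4 cells and 0.799, 0.456 and 0.419 in CD8a cells, without overlap (-2.05 ± 0.10). S100a6, a calcium-binding protein of activated and memory cells, was at 4.46, 1.76 and 2.93 in CD4 and 0.947, 0.554 and 0.825 in CD8a cells (-1.78 ± 0.11). Lgals1, galectin-1, was at 4.03, 2.24 and 4.09 against 1.76, 1.33 and 1.72 (-1.02 ± 0.09). Mouse 2 had the lowest CD4 value of all these genes, and still each CD4 value lay above every CD8a value. Vim, S100a10, S100a11, S100a13, Ly6e, Id2, Itga4 and Ms4a6b were called on the same side, whereas Anxa2, Crip1, Hopx, Ccl4, Cxcr3 and Ahnak were not called.

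Of 9 shared homing genes 3 were higher in CD8a cells, Ccr9 and Cxcr4 among them, and 2 were higher in CD4 cells. The shares over all shared genes were 7.53% and 16.6%. Ccr9, the receptor for the gut chemokine CCL25, averaged 1.06, 1.37 and 1.43 in CD8a cells and 0.186, 0.144 and 0.153 in CD4 cells (2.41 ± 0.12). The lowest CD8a value of this gene lay far above the highest CD4 value. Cxcr4, the receptor for CXCL12, showed a smaller difference (0.54 ± 0.09, adjusted p = 0.0042), and the oxysterol receptor gene Gpr183 (-0.43 ± 0.07) and the integrin gene Itga4 (-0.28 ± 0.08) were higher in CD4 cells. Of 12 shared naive and quiescence genes, 4 were higher in CD8a cells, Ccr9, Ssh2 and Klf2 among them, Ets1 and Foxo1 were higher in CD4 cells, and Tcf7, Lef1, S1pr1, Satb1, Foxp1 and Tsc22d3 were not called, so the list did not move as 1.

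Helper and regulatory genes were thinly covered. Of 31 CD4 lineage and helper genes 4 were shared: Lat was higher in CD4 cells, Ifngr1 was higher in CD8a cells, and Slamf6 and Ikzf3 were not called. Lat, the adaptor that gathers signalling proteins under the T cell receptor, averaged 3.46, 3.69 and 3.98 in CD4 against 2.48, 2.72 and 2.54 in CD8a cells (-0.51 ± 0.06, adjusted p = 0.00049). Ifngr1, the interferon gamma receptor chain, averaged 1.03, 0.864 and 0.965 in CD4 against 1.52, 1.39 and 1.58 in CD8a cells (0.60 ± 0.07). The regulatory T cell gene Tnfrsf18, which encodes GITR, was higher in CD4 cells at 1.45, 0.808 and 0.887 against 0.48, 0.577 and 0.505 (-0.85 ± 0.16, adjusted p = 0.0069), and it was the only one of 16 such genes listed for both. Il6ra, the IL-6 receptor chain, was higher in CD4 cells in each mouse (-0.65 ± 0.07). Of 7 shared cytokine receptor genes, Ifngr1 and Il2rb were called on the CD8a side, Il6ra and Tgfbr2 on the CD4 side, and Il6st, Ifnar1 and Il17ra were not called. Over so few genes these counts say little beside the 7.53% and 16.6% of all shared genes.

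Genes of T cell receptor signalling were called more often on the CD4 side: of 18 shared, 10 were higher in CD4 cells and 1 in CD8a cells, with a median of -0.21. All shared genes leaned that way too, with 16.6% higher in CD4 and 7.53% in CD8a cells and a median of -0.08. The 10 were Lat, Tespa1, Trbc2, Rasgrp1, Lcp2, Cd2, Arhgap15, Skap1, Cd3g and Sh2d1a. Tespa1, which works in calcium signalling below the receptor, averaged 2.07, 2.06 and 2.17 in CD4 and 1.34, 1.46 and 1.49 in CD8a cells (-0.53 ± 0.06). The 1 gene on the CD8a side was Themis, a signalling protein of thymocyte selection, at 1.30, 1.25 and 1.39 against 0.69, 0.983 and 1.11 in CD4 cells (0.48 ± 0.10, adjusted p = 0.01). Ptprc, Lck, Cd3d, Prkcq, Ptpn6, Ubash3a and Nfatc3 were not called. Without mouse 3 the CD4 count was 6.

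Among transcription factors, 4 of 18 shared were higher in CD4 cells (Id2, Bcl11b, Ets1 and Foxo1) and 2 in CD8a cells (Klf2 and Klf3). Both counts are near the shares over all shared genes, 16.6% and 7.53%, so they show nothing particular to this list. Id2 (chromosome 12, 25093799 to 25097140, minus strand), an inhibitor of E proteins, averaged 2.56, 1.65 and 1.92 in CD4 and 1.03, 0.781 and 0.565 in CD8a cells (-1.28 ± 0.11, adjusted p = 0.00011). Bcl11b, which upholds T cell identity, was at 3.28, 3.85 and 4.19 against 1.92, 2.69 and 2.66 (-0.63 ± 0.06). Both sets were free of overlap. Klf2, which drives S1pr1, showed a small difference the other way (0.18 ± 0.05, adjusted p = 0.024). Tcf7, Lef1, Satb1, Ikzf1, Ikzf3, Zeb1, Id3, Foxp1, Zbtb20, Elf1 and Nfatc3 were among the 12 not called.

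Of 23 shared interferon response genes, 6 were higher in CD4 cells (Ly6a, Ifi27l2a, Slfn2, Ly6e, Zbp1 and Ifit1), 1 was higher in CD8a cells (Ifi213) and 16 were not called, Irf7 and Isg15 among them. Ifi27l2a, a small mitochondrial protein, averaged 10.6, 8.92 and 7.76 in CD4 and 4.55, 4.84 and 3.21 in CD8a cells (-1.11 ± 0.07). The median of the list was -0.11, close to the -0.08 of all shared genes, and -0.03 when centred. Of all shared genes, 16.6% were higher in CD4 and 7.53% in CD8a cells. Epsti1, which interferon also induces, was outside the list and ran the other way, at 4.13, 3.98 and 3.99 in CD8a against 1.82, 1.33 and 1.78 in CD4 cells (1.26 ± 0.08). Of 10 shared MHC class I and antigen-processing genes, H2-Q7 was higher in CD8a and H2-D1 higher in CD4 cells, both members of a family whose copies share reads.

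Several genes outside the lists differed as strongly. Tesc (chromosome 5, 118027743 to 118061878, plus strand), a calcium-binding regulator of phosphatase and sodium-proton exchange, averaged 1.22, 1.29 and 1.41 in CD4 and 0.313, 0.317 and 0.317 in CD8a cells (-1.76 ± 0.09, adjusted p = 7.3e-06). Inpp4b, a lipid phosphatase, was higher in CD4 cells by less (-0.79 ± 0.07), followed by Prr13 (-0.71 ± 0.08) and the membrane fusion gene Vamp8 (-0.66 ± 0.07). Dnajc15, a mitochondrial co-chaperone, averaged 4.19, 3.99 and 4.38 in CD8a and 1.52, 1.39 and 1.64 in CD4 cells (1.41 ± 0.06). Ctla2a, a protease inhibitor of the cathepsin family with close relatives on chromosome 13, was higher in CD8a cells (1.51 ± 0.13), and so was Zfas1, a host of small nucleolar RNAs (0.75 ± 0.09).

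Ribosomal protein genes held the most calls higher in CD8a cells of the lists examined, by small differences. Of 48 shared genes of the large subunit 33 were called higher in CD8a and 0 higher in CD4 cells (median 0.18), and of 32 genes of the small subunit 23 and 0 (median 0.16). The shares over all shared genes were 7.53% and 16.6%. Rpl32 averaged 85.7, 83.2 and 87.3 in CD8a and 67.3, 68.8 and 69.3 in CD4 cells (0.32 ± 0.04). Rplp1, of the ribosomal stalk, gave 0.35 ± 0.05 and Rps12, of the small subunit, gave 0.33 ± 0.04. The large subunit genes summed to 1833.2, 1686.2 and 1686.3 in CD8a and 1531.9, 1531.9 and 1450.7 in CD4 cells, so the sums did not overlap. The elongation factor genes Eef1b2 (0.39 ± 0.05), Eef1g (0.23 ± 0.05) and Eef1a1 (0.16 ± 0.04) went with them, and the initiation factor genes Eif1 and Eif4g2 were higher in CD4 cells, with 21 of 26 translation factor genes not called. Calls of these genes rest on small differences: without mouse 3 the ribosomal counts were 10 and 11, and with the mice unpaired 7 and 11. Ribosomal genes have many processed copies, and reads of a copy may be counted apart.

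Nuclear genes of oxidative phosphorylation leaned the other way, with 19 of 69 higher in CD4 and 0 higher in CD8a cells, beside 16.6% and 7.53% of all shared genes. Their median was -0.09, close to the -0.08 of all shared genes. Ndufv3, of complex I, averaged 2.35, 1.76 and 1.80 in CD4 and 1.55, 1.38 and 1.43 in CD8a cells (-0.40 ± 0.07), and Uqcrb, of complex III, gave -0.35 ± 0.07. This count depends on the scale: centred on the median of each profile, 4 were higher in CD4 and 2 in CD8a cells, and without mouse 3 the count was 4. The called genes of the mitochondrial genome split by kind of RNA. The ribosomal RNA genes mt-Rnr1 (-0.43 ± 0.04) and mt-Rnr2 were higher in CD4 cells, and mt-Nd1, mt-Nd2, mt-Nd4, mt-Nd5 (0.38 ± 0.04) and mt-Co1, which encode respiratory chain subunits, were higher in CD8a cells. The other protein-coding genes, mt-Cytb, mt-Nd3, mt-Atp6, mt-Nd6 and mt-Atp8, were not called. In all, 4 of the 12 shared genes lay below 0, mt-Rnr1 and mt-Rnr2 among them, so the split is not one of all members. mt-Rnr1 averaged 143, 124 and 110 in CD4 against 102, 91.9 and 85.5 in CD8a cells, while mt-Nd5 averaged 3.53, 3.52 and 3.57 against 4.55, 4.82 and 4.57.

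Cytoskeletal, splicing and proteasome genes had more calls on the CD4 side, as had all shared genes (16.6% against 7.53%). Of 31 actin cytoskeleton genes 14 were higher in CD4 cells, among them Actb (-0.39 ± 0.05) and Coro1a (-0.35 ± 0.04), and 3 in CD8a cells (Tagln2, Dock10 and Tmsb10). Actb averaged 59.4, 56.5 and 66.6 in CD4 and 47.7, 44.4 and 46.9 in CD8a cells. The splicing list of 48 genes also holds the nuclear noncoding RNAs Malat1 and Neat1, which are not splicing factors. Of the 48, 13 were higher in CD4 and 0 in CD8a cells, Malat1 among the 13. Malat1 was at 163, 151 and 149 in CD4 against 122, 117 and 111 in CD8a cells (-0.41 ± 0.04), and the splicing gene Hnrnpa3 gave -0.28 ± 0.05. Of 30 proteasome genes 6 were higher in CD4 and 0 in CD8a cells, Psma1 (-0.39 ± 0.08) and Psma3 (-0.28 ± 0.06) leading, a share near that of all shared genes. Centred on the median, the counts on the CD4 side were 9, 4 and 3 in the same order, and without mouse 3 they were 6, 3 and 2.

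**Figure D3:**
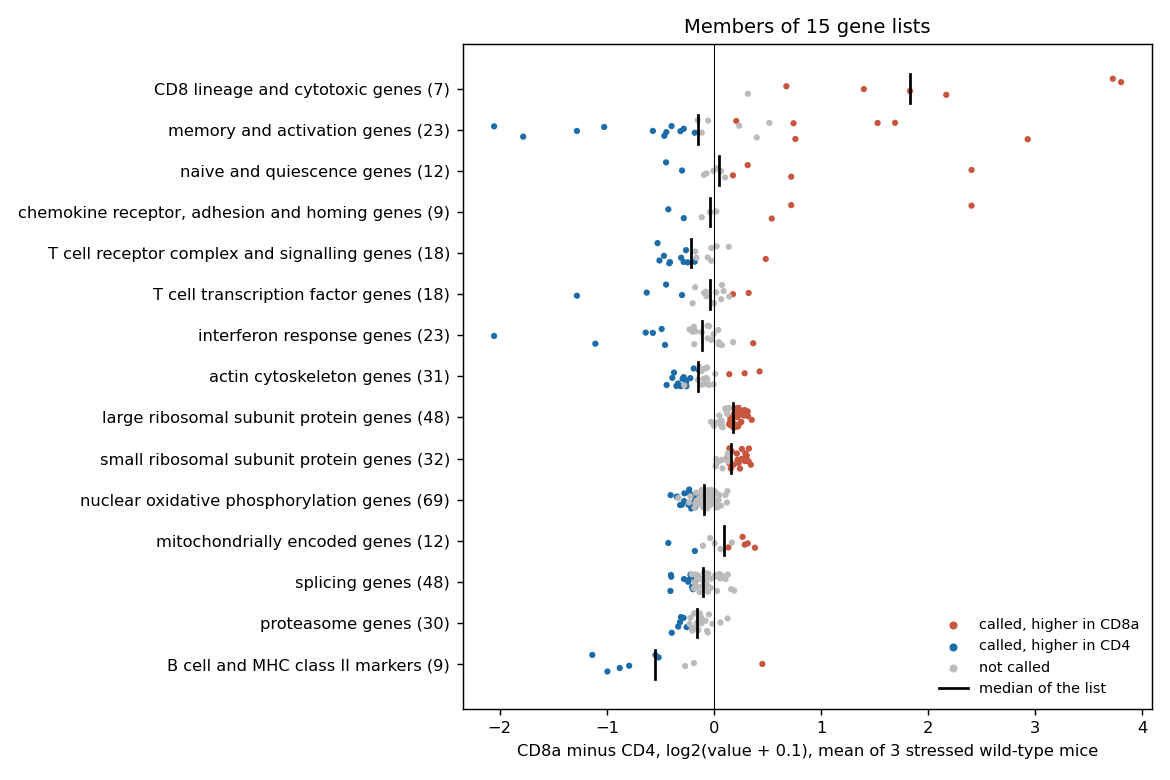
Difference between CD8a and CD4 cells (horizontal axis, log2(value + 0.1), mean of 3 stressed wild-type mice) for each shared member of 15 gene lists, with the number of shared members in brackets and a black bar at the list's median. CD8 lineage and cytotoxic genes spread far to the right, with the label genes Cd8a and Cd8b1 farthest. The ribosomal lists sit in narrow bands to the right of 0, with 33 and 23 members called higher in CD8a cells.

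Chromatin and stress genes were called about as often as all shared genes (24.1%). Of 27 shared histone and chromatin genes 5 were higher in CD4 cells (Hmgb2, at -0.66 ± 0.06, H3f3b, Arid1a, Crebbp and Tet3) and Hdac7 was higher in CD8a cells. H3f3b, the replacement histone H3.3 gene, averaged 10.1, 11.7 and 10.6 in CD4 and 7.22, 8.69 and 7.62 in CD8a cells (-0.46 ± 0.04). Of 13 immediate early and stress genes, Jund (-0.47 ± 0.06), Hsp90aa1 and Zfp36l1 were higher in CD4 cells and the mitochondrial chaperonin gene Hspe1 (0.43 ± 0.06) was higher in CD8a cells. The values of Hspe1 followed the mouse, at 3.33, 3.81 and 5.65 in CD4 and 5.08, 5.15 and 6.87 in CD8a cells, so the cell types overlapped between mice but not within one. Of 3 shared glucocorticoid response genes, Cxcr4 was higher in CD8a cells, Ddit4 was higher in CD4 cells and Tsc22d3 was not called.

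Markers of other spleen cells were present at low levels and also differed. Of 9 shared B cell and MHC class II markers 6 were higher in CD4 cells (Cd74, H2-Ab1, Igkc, H2-Aa, H2-Eb1 and Ebf1) and H2-DMa was higher in CD8a cells. Over all shared genes the shares were 16.6% and 7.53%. Cd74, the MHC class II invariant chain, averaged 1.51, 1.42 and 2.38 in CD4 and 0.644, 0.515 and 1.15 in CD8a cells (-1.14 ± 0.08, adjusted p = 2.7e-05), and H2-Ab1 was at 0.462, 0.414 and 0.744 against 0.163, 0.16 and 0.35 (-0.99 ± 0.09). The list summed to 4.81, 4.92 and 7.77 in CD4 and 3.13, 2.60 and 4.65 in CD8a cells, highest in mouse 3 for both. Ighm and Pax5 were listed for CD8a cells only. The 5 shared neutrophil markers summed to 0.222 to 0.44 in CD4 and 0.325 to 0.588 in CD8a cells, with G0s2 alone called, higher in CD8a cells. The median difference of these markers was -0.04, and 3 of them lay below 0. S100a9 was at 0.111, 0.0595 and 0.106 in CD4 against 0.0889, 0.0368 and 0.0851 in CD8a cells (-0.18 ± 0.08, adjusted p = 0.14). Of 6 monocyte and dendritic cell markers, Ctss was higher in CD4 cells and Ccr9 and Plac8, which T cells also express, were higher in CD8a cells. The 4 hemoglobin genes, near-identical in pairs, were not called, at sums of 0.197 to 2.36 in CD4 and 0.228 to 0.688 in CD8a cells. The platelet and gamma delta T cell marker lists had 0 shared genes, and the 2 shared proliferation genes, Tuba1b and Cks2, were not called. The part of these cells in the differences was not tested.

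The same contrast in unstressed wild type came from 3 other mice and gave the same sign for 509 of the 522 called genes (97.5%, against 74.0% of all shared genes). The test of the difference between these groups called 5 genes, or 0.231% of those tested, all with a more negative CD8a minus CD4 difference in stressed mice: Cd74, Lgals1, S100a11, Ccl5 and S100a6. In all, 176 genes (8.13%) had an unadjusted p under 0.05. Cd8a and Cd8b1 were not among the genes called.

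Ccl5 moved most, by -1.36 ± 0.24 (adjusted p = 0.024). Its within-mouse difference was 1.48, 1.79 and 1.78 in unstressed mice and -0.32, 1.18 and 0.08 in stressed mice, so the groups did not overlap, and mouse 2 stood nearest to the unstressed mice. In unstressed mice it averaged 2.45, 3.22 and 1.87 in CD4 and 6.99, 11.4 and 6.66 in CD8a cells, so both averages were higher in stressed mice and that of CD4 cells by the larger factor. The means of S100a6 were higher in stressed mice in the same uneven way, although its CD8a values overlapped. It was at 0.779, 1.53 and 0.732 in unstressed CD4 and 0.294, 0.694 and 0.382 in unstressed CD8a cells, whose difference went from -1.16, -1.04 and -0.79 to -2.12, -1.51 and -1.71 (-0.79 ± 0.15, adjusted p = 0.032).

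Lgals1 differed little between the cell types in unstressed mice, at -0.22, -0.24 and -0.38, and by -1.15, -0.72 and -1.21 in stressed mice (-0.74 ± 0.11, adjusted p = 0.01). Its CD4 values were 1.40, 1.69 and 1.36 in unstressed mice and 4.03, 2.24 and 4.09 in stressed ones. S100a11, another S100 protein gene, was higher in CD8a cells of each unstressed mouse (0.21, 0.37 and 0.40) and level or higher in CD4 cells in stressed mice, where the largest difference was -0.50 (-0.64 ± 0.11, adjusted p = 0.024). Cd74 went from -0.21, -0.43 and -0.02 to -1.11, -1.30 and -0.99 (-0.91 ± 0.12, adjusted p = 0.0024), and these differences did not overlap. In unstressed mice it averaged 2.88, 1.70 and 1.05 in CD4 and 2.49, 1.23 and 1.03 in CD8a cells, and each of these sets overlapped that of stressed mice. B cell and MHC class II markers as a list summed to 9.67, 5.75 and 3.89 in unstressed CD4 and 9.51, 4.14 and 4.35 in unstressed CD8a cells, so they too were closer between the cell types there, and their part in the result for Cd74 was not tested. These 5 calls are fragile: without stressed mouse 2 there were 24 in this direction and 6 in the other, without stressed mouse 1 or 3 there were 3 and 1, and without unstressed mouse 1, 2 or 3 there were 0, 2 and 2.

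**Figure D4:**
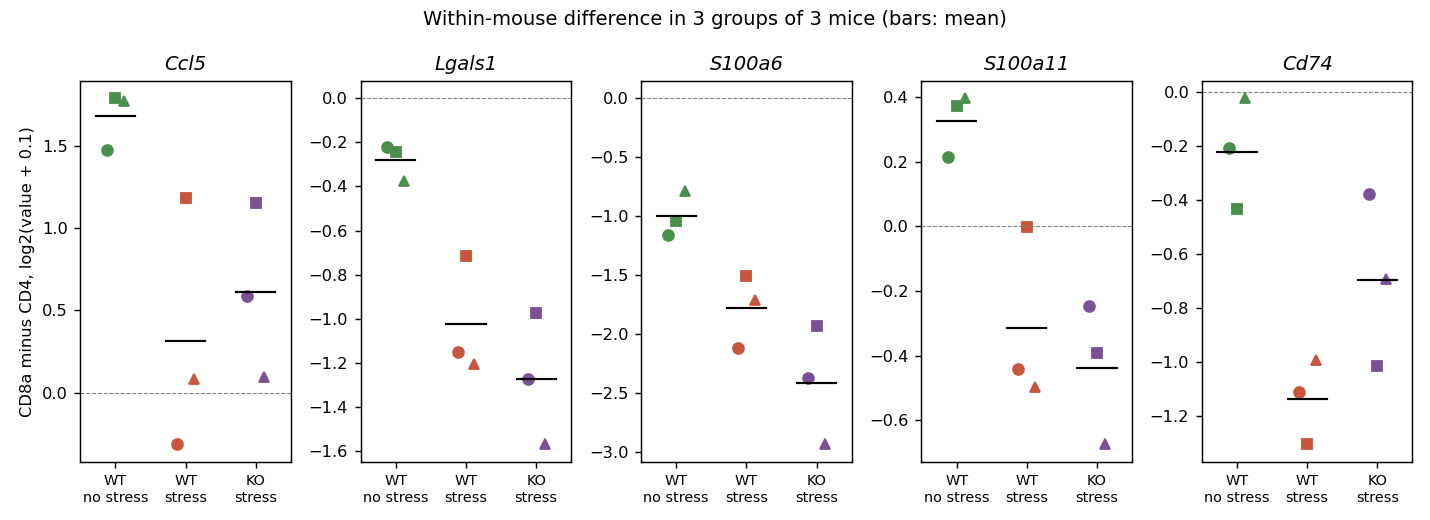
Within-mouse difference, CD8a minus CD4, on the log2(value + 0.1) scale for 5 genes in unstressed wild-type, stressed wild-type and stressed knockout mice, 1 point per mouse with a bar at the mean and a separate vertical axis for each gene. For each gene the 3 stressed wild-type points lie below the 3 unstressed ones. The 5 genes are those called for this change, so the separation follows in part from their choice.

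Against the knockout, the same contrast in 3 stressed S100a9-/- mice kept its sign for 504 of the 522 called genes (96.6%, against 75.8% of all shared genes). The test of the difference between genotypes called 0 genes (0.0%) in limma, with 118 (5.45%) at an unadjusted p under 0.05. The 5 genes with the smallest p were Tesc (0.58 ± 0.15), Tardbp (-0.45 ± 0.13), Serpinb6b (-0.70 ± 0.21), Lamtor4 (-0.45 ± 0.13) and A630081D01Rik (-0.66 ± 0.20), each at an adjusted p of 0.83. Tesc, for instance, averaged 1.22, 1.29 and 1.41 in the CD4 and 0.313, 0.317 and 0.317 in the CD8a cells of stressed wild-type mice, and 1.39, 1.4 and 1.3 in the CD4 and 0.207, 0.23 and 0.142 in the CD8a cells of knockout mice. A miss of the threshold with 3 mice a group does not show that the genotypes act alike. Leaving out knockout mouse 2 gave 3 called genes.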

How the data were processed

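Spleens of 12 mice went into libraries of the 10x Genomics 3' v2 kit, per the labels' protocols, and the submitters' processing notes name Cell Ranger 2.1.1 and the genome build mm10. The authors deposited 8 tables, 4 per cell type, of a linear signal: by their names the values are averages of expression per subject, and the file headers give 1 column per mouse. Each table lists genes that the authors selected for a comparison of mouse groups, by a rule not given in the sources used here, so the shared genes are no sample of all genes. 0 genes had values that differed between tables of a cell type. The shared genes of a stressed wild-type mouse summed to 7727.3 to 7798.9 in CD4 and 7904.7 to 8019.9 in CD8a cells. The files give no counts or cell numbers, so depth is unknown and no counting interval can be given.

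CD8a minus CD4 differences of log2(value + 0.1) within each mouse were tested with limma (version 3.58.1, run in R 4.3.3; empirical Bayes with a mean-variance trend, two-sided, Benjamini-Hochberg adjustment over 2166 genes, called at an adjusted p under 0.05). In stressed wild type this was a test of 3 differences against 0, and between groups 3 differences against 3. The pseudocount understates changes of low genes. Pairing comes from the design, since both cell types of a mouse share a spleen and a library. Across genes, deviations from the group mean correlated at 0.39, 0.37 and 0.46 within stressed wild-type mice and at -0.33 to -0.09 between them. Deviations from a mean of 3 mice sum to 0, so the negative values between mice follow in part from the arithmetic. The labels do not say more of how mice were replicated or housed.

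Besides Cd4, Cd8a and Cd8b1, the text names the 12 largest called differences in each direction among genes with all 3 mice on 1 side of 0 and a mean over all mice at or above the median of 0.742 (predicted genes and receptor segments left out), and the 2 smallest p of each list with at least 3 called members. For each change of the difference it names the 5 largest called, or, where fewer were called, the 5 smallest p as not called. A few genes that this rule picks are not reported here. Genes named beyond this rule, such as list members, were chosen after their values were seen. The members, lists and tests were chosen with earlier results of these data known. Lists are described by counts and medians with no set test. In a list, symbols matched by pattern were trimmed of genes that are not members, but the splicing list kept Malat1 and Neat1. Positions come from GENCODE M21, which matched 2112 shared genes (97.5%), and promoters from RefSeq (GRCm38.p6). Of 200 changed genes in simulated data of 2166 genes, the test of stressed wild type recovered 20.2% at a log2 size of 0.25, 67.2% at 0.5 and 92.9% at 1, with 2.89% false calls. The simulated noise was normal, centred on 0 and independent between genes, with no shift of whole profiles. The share of false calls therefore need not hold for the real values, whose calls change with the scaling.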

Additional observations from a re-analysis of the deposited data

Results flagged for a closer look

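The CD8a minus CD4 difference of 5 genes differed between stressed and unstressed wild-type mice by the test of the difference itself, in each case more negative under stress. On the log2(value + 0.1) scale the change was -1.36 for Ccl5, -0.91 for Cd74, -0.79 for S100a6, -0.74 for Lgals1 and -0.64 for S100a11. In stressed mouse 2 the difference stood nearest to the unstressed mice for Ccl5, Lgals1, S100a6 and S100a11, and that mouse's CD4 cells had the lowest value of these 4 genes. For Cd74 it stood farthest from them.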

How the results depend on the processing

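Of 59 named results, 49 kept their call in every alternative run and 0 changed direction. Calls higher in CD8a and higher in CD4 cells (163 and 359) were 264 and 192 centred on each median, 237 and 210 scaled without ribosomal and mitochondrial genes, 97 and 216 without the mean-variance trend, and 74 and 140 with no replicate block, that is, with the mice unpaired. Signs alone, with no test, put 385 and 842 genes on 1 side in all 3 mice. Leaving out 1 mouse at a time gave 96 to 174 and 180 to 429, lowest without mouse 3, when 259 of the 522 calls remained. The 5 calls of a stress effect became 9 with a pseudocount of 1, 0 without the trend and 1 (Cd74) with all 4 groups in the fit, and 0 to 24 lower and 0 to 6 higher with 1 mouse left out. The genotype effect gave 0 to 3. Eef1g and Psma3 lost their calls without the trend, Hspe1 and Ndufv3 unpaired, and Psma1 without mouse 3. The causes were not tested. A fit that leaves out 1 of 3 mice rests on 2. Cells per average and depth are unknown, so the precision of low genes such as Gzmm and S100a9 is known only through the spread between mice.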

Other observations

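Some further gene families were noticed only after their values were seen and carry no test as families. Over all shared genes 7.53% were called higher in CD8a and 16.6% higher in CD4 cells. All 6 shared Gimap genes, GTPases that support lymphocyte survival, were called higher in CD4 cells, from -0.57 for Gimap1 to -0.31 for Gimap7, with a median of -0.35 against -0.08 over all shared genes. Centred on each median 5 of the 6 were called, as they were without mouse 3. Of 9 host genes of small nucleolar RNAs (Gas5, Zfas1 and the Snhg genes), which carry these RNAs in their introns, 3 were called higher in CD8a and 0 higher in CD4 cells: Zfas1 (0.75), Gas5 (0.47) and Snhg8 (0.30). Gas5 averaged 8.72, 7.62 and 7.77 in CD8a and 5.90, 5.94 and 5.52 in CD4 cells.

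Of 9 peroxiredoxin, glutathione peroxidase, thioredoxin and superoxide dismutase genes, which handle peroxides and superoxide, 5 were called higher in CD4 cells (Prdx2, Gpx1, Prdx5, Gpx4 and Txn1), and only Prdx2 of them when centred or without mouse 3. Mitochondrial ribosomal protein genes gave 4 calls of 57, all higher in CD4 cells, a smaller share than the 16.6% of all shared genes called in that direction. The median of the mitochondrial ones was -0.05, and 0.03 when centred, so the sign of that median turns with the scaling.

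The longest annotated transcript of protein-coding genes other than ribosomal and mitochondrial ones had a median of 2112 bases for the 79 called higher in CD8a cells, 2122 for the 337 called higher in CD4 cells and 2245 for the 1367 not called.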
